A study of Homo sapiens with 9 samples.

Results

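The replication-dependent histone genes encode the linker histone H1 and the core histones H2A, H2B, H3 and H4, which package DNA into nucleosomes. They were taken as all protein-coding genes of the count table whose symbol begins with HIST1H, HIST2H, HIST3H or HIST4H, which gave 71 of 58735 genes: 6 of H1, 17 of H2A, 18 of H2B, 15 of H3 and 15 of H4. Bulk RNA sequencing was done on 9 libraries of FaDu, a long-established cell line from a squamous carcinoma of the human hypopharynx, grown with fetal bovine serum. By their labels, 3 libraries (KD_OE) combine AMIGO2 knockdown with CAPN2 overexpression, 3 (KD_NC) carry the AMIGO2 knockdown alone and 3 (NC_NC) come from normal control cells given as wild type, all with no further treatment. The means of knockdown and overexpression, and whether each group was a single clone, are not stated; the labels call the 3 libraries of a group biological replicates, with nothing on separate cultures, so p-values measure the spread between these libraries.

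Replication-dependent histone genes lie in clusters, mostly lack introns and are transcribed when DNA is copied, so that new DNA can be wrapped. Their main messenger RNAs are the only ones in animal cells that end in a stem-loop in place of a poly(A) tail: the stem-loop binding protein SLBP holds the stem-loop, and the U7 particle with LSM10 and LSM11 guides the cut just after it. The same structure serves to destroy these messengers when DNA synthesis ends, with the exonuclease ERI1 and the helicase UPF1, and some of the genes can also give a longer polyadenylated transcript.

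AMIGO2, a cell-surface protein gene and the target of the knockdown, had 42.8, 35.3 and 38.8 CPM in libraries labelled KD_OE, 24.5, 31.3 and 27.3 CPM in KD_NC and 29.5, 26.1 and 27.2 CPM in NC_NC. The libraries labelled KD_NC overlapped NC_NC, with a log2 fold change of 0.01 (95% interval -0.23 to 0.25, adjusted p = 0.971), so the lower level that the label calls for was not seen. AMIGO2 was higher in KD_OE than in KD_NC (log2 fold change 0.49, SE 0.114, adjusted p = 0.00140). It was also higher in KD_OE, a group labelled with its knockdown, than in NC_NC (log2 fold change 0.50, SE 0.114, adjusted p = 0.00106). The groups are named here by their labels. CAPN2, the calpain-2 gene to be overexpressed, had 498, 498 and 500.2 CPM in libraries labelled KD_OE, 395, 424 and 435 CPM in KD_NC and 447, 474 and 466 CPM in NC_NC. It was 1.19-fold as high in KD_OE as in KD_NC (adjusted p = 0.0120), lost without replicate 1 of KD_OE (adjusted p = 0.0601) or with no filter on low counts (0.0871). KD_OE against NC_NC was not called for CAPN2 (log2 fold change 0.11, SE 0.0794, adjusted p = 0.254), but was called in a fit of these 2 groups alone (adjusted p = 0.0389) and with upper-quartile scaling (0.0278). Values are CPM, the counts scaled to library size with TMM factors, and p-values are from edgeR's quasi-likelihood test with Benjamini-Hochberg adjustment over 16812 tested genes. Libraries held 15158607 to 19737562 counts, so that 3 counts came to 0.149 to 0.203 CPM. All 8 squamous epithelial markers passed the filter, with summed levels of 4467 to 5095 CPM in KD_OE, 4089 to 5186 CPM in KD_NC and 7799.8 to 8302 CPM in NC_NC. Of the endothelial markers 2 of 7 passed the filter on low counts, KDR was at 0 in every library, and the summed level of the list was 16.3 to 17.2 CPM in KD_OE, 43.6 to 50.2 CPM in KD_NC and 18.3 to 22.7 CPM in NC_NC, most of it from CDH5. Of the blood and immune markers and of the fibroblast markers 1 of 8 each passed, with summed levels of 5.68 to 9.06 and 13.5 to 15.6 CPM in KD_OE, 18.9 to 25.3 and 11.0 to 14.0 CPM in KD_NC, and 14.7 to 18.6 and 8.25 to 9.78 CPM in NC_NC. Mitochondrial ribosomal RNA took 1.02 to 1.05% of counts in KD_OE, 0.877 to 1.09% in KD_NC and 0.537 to 0.583% in NC_NC, and the part of these markers and of this RNA in the differences between groups was not tested.

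The stem-loop was searched in the annotated transcripts (GENCODE v29, GRCh38) as GG, any 2 bases, CTTTT, any base, AG, any 2 bases and CC, on the transcript's strand, after the stop codon. It was found in 31 of the 71 histone genes; 80 of 58676 annotated genes (0.136%) held this motif anywhere in a transcript. The sequences of 5 genes are shown because they hold the 5 forms of the stem-loop that were seen and because most of these genes carry results given further on. Each is a window of 30 bases in the sense of the transcript, 5′ to 3′, with the stem-loop in capitals and its coordinates.
HIST3H2A, chr1:228457369-228457384, minus strand: acataaaGGCTCTTTTCAGAGCCacctact
HIST1H2BD, chr6:26158587-26158602, plus strand: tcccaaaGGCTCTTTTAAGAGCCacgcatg
HIST4H4, chr12:14770724-14770739, minus strand: tccaaaaGGCCCTTTTCAGGGCCcccaaac
HIST1H4I, chr6:27139654-27139669, plus strand: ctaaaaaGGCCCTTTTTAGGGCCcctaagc
HIST1H2AG, chr6:27133515-27133530, plus strand: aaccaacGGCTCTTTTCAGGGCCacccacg

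The first form was shared by 17 genes, among them HIST3H2A, HIST1H2BH, HIST2H2BE, HIST3H2BB and HIST1H2AC. The form of HIST1H2BD was shared by 5 genes, that of HIST4H4 by 5 H4 genes and that of HIST1H4I by 3 H4 genes. HIST1H2AG alone among the 31 had a stem whose left and right arms are not exact complements. In 40 histone genes the letters were not found in the annotated transcripts. Of the 71 gene models, 35 show no bases after an annotated stop codon, so a stem-loop there could not be found.

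The 250 bases before the start were available for 61 of the 71 genes (RefSeq, GRCh38.p14). They were searched on both strands for CCAAT, the box bound by the factor NF-Y, for TATAAA, the core promoter element bound by TBP, and for ATTTGCAT, the octamer bound by the factor OCT1 in histone H2B promoters. CCAAT was present in 51 of 61 histone promoters (83.6%), against 32.0% of 35116 RefSeq promoters. TATAAA was present in 41 of 61 (67.2%), against 10.7%, and ATTTGCAT in 21 of 61 (34.4%), against 1.63%. The 4 promoters below belong to genes that differed between the groups, with the matches in capitals and 5′ to 3′ in the sense of the gene. Matches of TATAAA on both strands overlap in the runs TTTATAAA.
HIST3H2A, chr1:228457874-228458123, minus strand: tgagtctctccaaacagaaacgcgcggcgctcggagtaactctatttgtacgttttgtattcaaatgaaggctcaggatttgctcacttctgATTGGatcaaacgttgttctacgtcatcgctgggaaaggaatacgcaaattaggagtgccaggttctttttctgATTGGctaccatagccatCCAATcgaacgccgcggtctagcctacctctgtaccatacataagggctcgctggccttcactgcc
HIST2H2BE, chr1:149886683-149886932, minus strand: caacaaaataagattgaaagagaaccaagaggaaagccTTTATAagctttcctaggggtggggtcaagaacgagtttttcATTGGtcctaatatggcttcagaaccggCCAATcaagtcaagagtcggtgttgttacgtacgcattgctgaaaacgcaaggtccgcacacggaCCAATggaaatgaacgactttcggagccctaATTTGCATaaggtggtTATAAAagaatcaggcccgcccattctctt
HIST1H2AG, chr6:27132793-27133042, plus strand: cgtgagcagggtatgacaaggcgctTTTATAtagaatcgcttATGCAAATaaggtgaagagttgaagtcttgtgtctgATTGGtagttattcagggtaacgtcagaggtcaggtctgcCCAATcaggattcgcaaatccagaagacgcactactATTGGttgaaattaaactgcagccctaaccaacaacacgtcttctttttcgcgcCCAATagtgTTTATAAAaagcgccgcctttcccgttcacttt
HIST1H2BK, chr6:27146859-27147108, minus strand: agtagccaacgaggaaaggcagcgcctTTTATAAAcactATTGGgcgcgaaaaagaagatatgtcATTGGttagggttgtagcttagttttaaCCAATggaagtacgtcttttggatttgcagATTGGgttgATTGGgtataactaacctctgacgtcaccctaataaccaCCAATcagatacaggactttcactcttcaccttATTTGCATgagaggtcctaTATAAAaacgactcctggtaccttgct

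The octamer was found in 11 of 16 H2A and 9 of 13 H2B promoters, in 1 of 13 H3 promoters and in none of the 6 H1 or 13 H4 promoters. The 1 H3 match is in the window listed for HIST1H3D, which is the same window (chr6:26199294-26199543, minus strand) as that listed for HIST1H2AD, so the match is counted under both classes. Windows of head-to-head genes also cover nearly the same DNA on opposite strands. Examples are HIST1H2AG (chr6:27132793-27133042) with HIST1H2BJ (chr6:27132796-27133045), and HIST2H2AC (chr1:149886668-149886917) with HIST2H2BE. A match of any motif there can count for both genes, so the promoter counts are not of separate stretches of DNA. CCAAT was found in every promoter of H1, H2A, H2B and H3 that was available, and in 3 of 13 of H4. The HIST3H2A window held 3 CCAAT matches but neither of the other motifs, whereas HIST2H2BE, HIST1H2AG and HIST1H2BK each held a TATAAA match 27 to 33 bases before the start. A match is a description of these letters and says nothing of binding.

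The 71 genes together took 25033 of 152042014 counts, with 6723 in KD_OE, 9662 in KD_NC and 8648 in NC_NC libraries. HIST3H2A alone held 30.6% of them, and the top 4 genes, HIST3H2A, HIST1H2AC, HIST1H2BH and HIST1H2BK, held 62.1%. The filter on low counts was passed by 25 genes, with 95.9% of the counts: 1 of H1, 4 of H2A, 11 of H2B, 6 of H3 and 3 of H4. Per length, HIST3H2A averaged 56.0 reads per kilobase of gene length scaled to library size (RPKM) over all 9 libraries, followed by HIST1H2BK at 29.8, HIST1H1C at 16.2, HIST1H2AC at 14.0 and HIST1H2BH at 8.46 RPKM. This order did not hold in each group: in NC_NC libraries HIST1H2BK had 49.0, 49.4 and 52.6 RPKM and overlapped HIST3H2A at 48.4, 54.8 and 51.5 RPKM. In KD_OE and in KD_NC the RPKM of HIST1H1C and HIST1H2AC overlapped. The models of HIST1H2BK and HIST1H1C hold coding sequence only, which sets their length. The other 46 genes fell below the filter: 9 were at 0 in every library, 11 had 1 to 10 counts over all 9 libraries and 26 had 11 to 73. By class, 5 of 6 H1, 13 of 17 H2A, 7 of 18 H2B, 9 of 15 H3 and 12 of 15 H4 genes were below it, so most H1, H2A, H3 and H4 loci were seen with a handful of reads or none.

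Among the low genes the most counted of each class and cluster were HIST1H2AJ with 73 counts, HIST1H4J with 63, HIST1H2BL and HIST2H4B with 53 each, HIST1H3B with 44, HIST1H1B with 40, HIST2H3D with 30, HIST3H3, a testis histone, with 18, and HIST2H2AB with 13. HIST1H4J had 1, 0 and 6 counts in KD_OE, 8, 16 and 17 in KD_NC and 4, 8 and 3 in NC_NC, and its KD_NC libraries lay above those of KD_OE and overlapped NC_NC. HIST1H2BL had 3, 9 and 3 counts in KD_OE, 11, 6 and 11 in KD_NC and 0, 8 and 2 in NC_NC, with overlapping groups. At 0 in every library, which allows up to 0.203 CPM in a library, were HIST1H1T, HIST1H2AA, HIST1H2AD, HIST1H2AK, HIST1H2BA, HIST1H3D, HIST1H4F, HIST2H3C and HIST2H3PS2; HIST1H1T, HIST1H2AA and HIST1H2BA are known as testis histones. Several of these zeros concern shared sequence: the exons of HIST1H2AK lie wholly within HIST1H2BN on the other strand, those of HIST1H3D and 98.0% of those of HIST1H2AD lie in AL031777.3, 99.5% of HIST2H3PS2 lies in AC239798.4, and every word of 50 bases in HIST2H3C also occurs in another gene. Reads from such places may have been left out or given to the other gene by the counting, so these 5 genes are uncertain. Low genes with counts are also uncertain where sequence is shared. Words of 50 bases were searched only in other genes with HIST symbols. Of these words, 83.7% in HIST1H2AJ, 81.2% in HIST1H4J, 97.2% in HIST2H4B and 80.4% in HIST2H3D also occur in such genes. The share was 10.9% in HIST1H2BL, 2% in HIST2H2AB and 0% in HIST1H1B, HIST1H3B and HIST3H3. A low share does not show that reads are unique: HIST1H3D has 0%, though its exons lie in AL031777.3. It was 97.1 to 100% in HIST2H2AA3, HIST2H2AA4, HIST2H3A, HIST2H4A and HIST1H4K.

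The 46 low genes summed to 4.90 ± 0.536 CPM in KD_OE, 8.02 ± 0.845 CPM in KD_NC and 7.01 ± 0.923 CPM in NC_NC (SD, n = 3 each). All 71 genes summed to 137, 128 and 143 CPM in the libraries labelled KD_OE, 174, 169 and 192 CPM in KD_NC and 171, 189 and 179 CPM in NC_NC. The 3 KD_OE libraries lay below the other 6, and the libraries of KD_NC and NC_NC overlapped. The means were 136 ± 7.53 CPM, 178 ± 12.1 CPM and 179.8 ± 8.78 CPM in the same order of groups; no test is given for a sum over these genes. Without HIST3H2A the sums were 91.3, 88.2 and 98.0 CPM in KD_OE, 118, 113 and 122 CPM in KD_NC and 128, 139.9 and 133 CPM in NC_NC, so that the 3 groups no longer overlapped and KD_NC lay below NC_NC. In bulk RNA, fewer cells that express a gene and less RNA per cell cannot be told apart. By class, H2B summed to 41.8 ± 1.83 CPM in KD_OE, 61.7 ± 4.75 CPM in KD_NC and 60.0 ± 1.31 CPM in NC_NC. H3 summed to 5.37 ± 0.727 CPM, 8.46 ± 1.32 CPM and 10.4 ± 2.07 CPM in the same order, and H1 to 8.70 ± 1.66 CPM, 10.2 ± 2.41 CPM and 14.1 ± 2.40 CPM. H4 summed to 8.78 ± 0.375 CPM in KD_OE, 9.80 ± 1.46 CPM in KD_NC and 13.4 ± 1.69 CPM in NC_NC. H2A summed to 71.4 ± 6.44 CPM in KD_OE, 88.2 ± 7.75 CPM in KD_NC and 81.8 ± 3.86 CPM in NC_NC. Without HIST3H2A the H2A sums were 27.9 ± 3.09 CPM, 27.5 ± 0.538 CPM and 35.6 ± 1.01 CPM, so that this 1 gene set the order of the KD_NC and NC_NC sums. It also set the lower H2A sum of KD_OE beside KD_NC, where the log2 ratio was -0.31 with HIST3H2A and 0.01 without it.

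**Figure D1:**
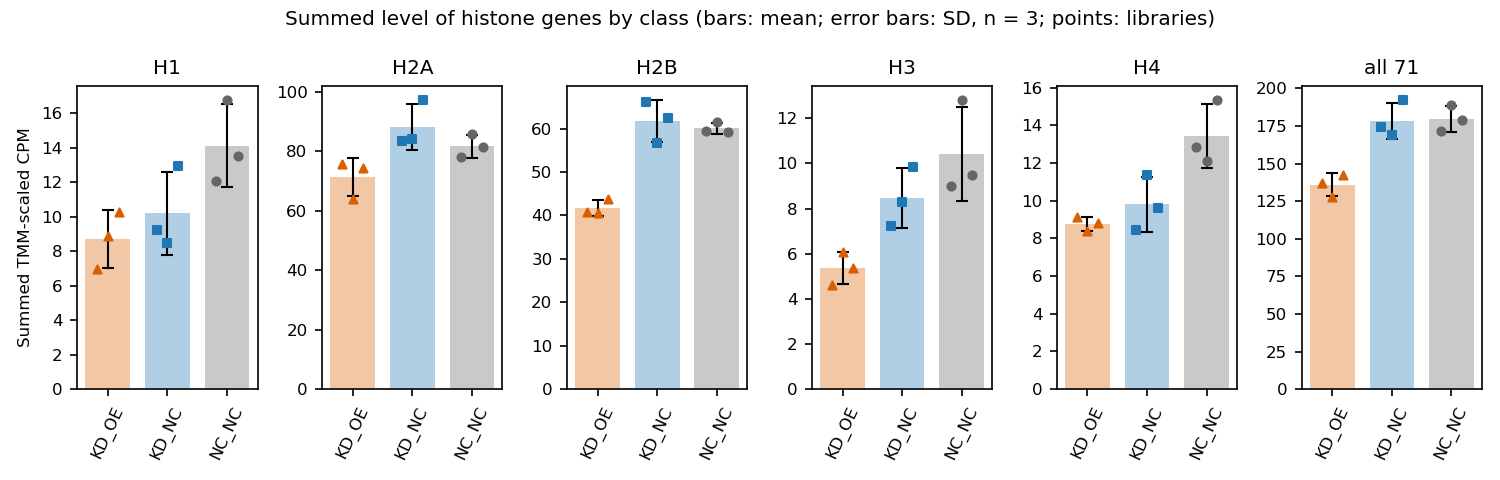
Summed TMM-scaled CPM (vertical axis, from 0) of all genes of each histone class and of all 71 genes, by library label; bars are means, error bars the SD over 3 libraries and points the libraries. The H2B and H3 sums of the KD_OE libraries lie below those of the other 6 libraries, and the sum of all 71 genes averages 136 CPM in KD_OE, 178 CPM in KD_NC and 180 CPM in NC_NC.

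Gene by gene, the libraries labelled KD_OE differed from KD_NC in 7 of 25 tested histone genes, 1 higher and 6 lower, where 49.2% of all tested genes were called (23.7% higher and 25.6% lower). The 7 genes are 28% of 25, a smaller share than the background, and 20 of the 25 fold changes were negative; the median was -0.44 on the log2 scale, against 0.01 for all genes tested. KD_NC differed from NC_NC in 12 of 25, 5 higher and 7 lower, where 34.6% of all tested genes were called (16.0% higher and 18.5% lower), with a median of -0.16, against -0.01 for all genes. KD_OE differed from NC_NC in 8 of 25, all 8 lower, where 56.3% of all genes were called (27.9% higher and 28.4% lower), with a median of -0.52, against 0.02 for all genes. In 10, 14 and 12 of the 25 genes in these 3 comparisons every library of 1 group lay beyond every library of the other, against 54.0%, 44.7% and 66.9% of all genes tested. The comparisons share libraries, KD_NC in the first pair of them and NC_NC in the last pair, so their values are given side by side and are not independent.

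**Figure D2:**
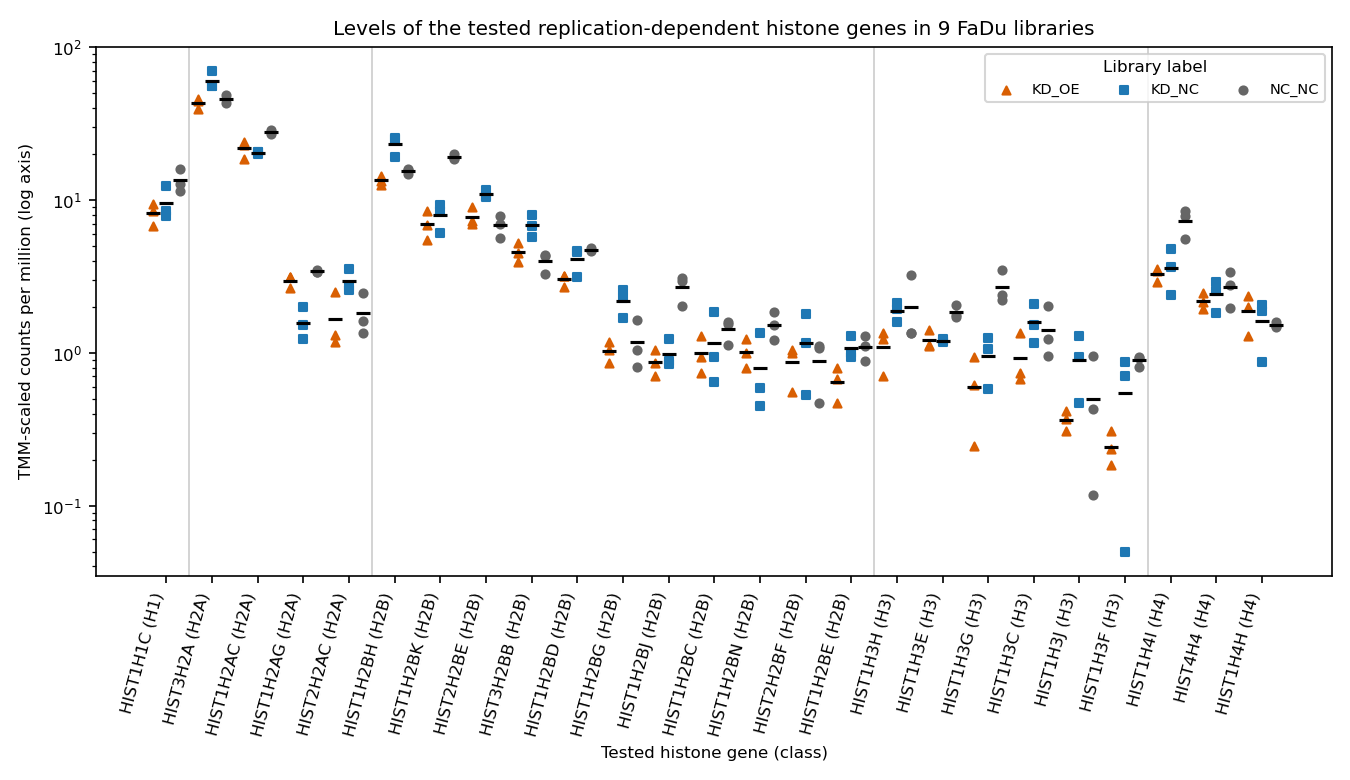
TMM-scaled CPM (log axis) of the 25 tested histone genes in each of the 9 libraries; triangles are KD_OE, squares KD_NC and circles NC_NC libraries, black dashes are group means, and grey lines part the classes. On this scale HIST3H2A is highest in every library, between 39.6 and 70.0 CPM, and most H3 genes lie near or below 2 CPM.

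H1 proteins bind the linker DNA between nucleosomes, and HIST1H1C (ENSG00000187837, chr6:26055787-26056428, minus strand) was the 1 H1 gene above the filter, with 1570 of the 1662 H1 counts. It had 6.73, 8.45 and 9.36 CPM in libraries labelled KD_OE, 8.45, 7.91 and 12.4 CPM in KD_NC and 11.5, 16.0 and 12.8 CPM in NC_NC. The KD_OE libraries all lay below the NC_NC libraries, and KD_NC overlapped both groups. HIST1H1C was lower in KD_OE than in NC_NC (log2 fold change -0.72, SE 0.183, adjusted p = 0.00245). It was also called lower in KD_NC than in NC_NC (log2 fold change -0.50, SE 0.179, adjusted p = 0.0382). The second call was lost without replicate 1 or 2 of KD_NC (adjusted p = 0.113 and 0.185), without replicate 2 or 3 of NC_NC (0.212 and 0.0649), under a correction for GC content and length (0.0919), with upper-quartile scaling (0.0565) and in a fit of these 2 groups alone (0.0577). KD_OE against KD_NC gave a log2 difference of -0.22 with a 95% interval of -0.61 to 0.17.

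Of the 4 tested H2A genes, HIST3H2A was higher and HIST1H2AC and HIST1H2AG lower in KD_NC than in NC_NC, while HIST3H2A and HIST2H2AC were lower and HIST1H2AG higher in KD_OE than in KD_NC. HIST3H2A (ENSG00000181218, chr1:228456979-228457873, minus strand) held the most counts of the family. It had 46.0, 39.6 and 44.7 CPM in libraries labelled KD_OE, 56.1, 56.0 and 70.0 CPM in KD_NC and 43.3, 49.0 and 46.1 CPM in NC_NC. All KD_NC libraries lay above the 6 others, and KD_OE and NC_NC overlapped. It was 1.40-fold lower in KD_OE than in KD_NC (log2 fold change -0.48, SE 0.107, adjusted p = 0.00103). The gene was 1.31-fold higher in KD_NC than in NC_NC (log2 fold change 0.39, SE 0.107, adjusted p = 0.00771). KD_OE and NC_NC differed by -0.09 on the log2 scale, with a 95% interval of -0.31 to 0.14.

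HIST1H2AG (ENSG00000196787, chr6:27133042-27135291, plus strand) faces HIST1H2BJ head to head. It had 3.15, 2.66 and 3.12 CPM in libraries labelled KD_OE, 1.22, 1.99 and 1.52 CPM in KD_NC and 3.38, 3.48 and 3.38 CPM in NC_NC. Its KD_NC libraries were the 3 lowest and its KD_OE libraries lay just under the NC_NC libraries. It was 1.87-fold higher in KD_OE than in KD_NC (log2 fold change 0.90, SE 0.248, adjusted p = 0.00548). The gene was 2.14-fold lower in KD_NC than in NC_NC (log2 fold change -1.10, SE 0.246, adjusted p = 0.00192). KD_OE and NC_NC were not called different (log2 fold change -0.20, SE 0.233, adjusted p = 0.484). HIST1H2AG was the 1 tested histone gene called higher in KD_OE than in KD_NC. HIST1H2AC (ENSG00000180573, chr6:26124145-26139116, plus strand) is an H2A gene known to give polyadenylated transcripts as well. It had 24.0, 18.5 and 22.9 CPM in libraries labelled KD_OE, 20.6, 20.1 and 20.5 CPM in KD_NC and 27.3, 28.6 and 28.1 CPM in NC_NC. Both groups labelled with the knockdown lay below NC_NC in all their libraries. The log2 fold change was -0.46 in KD_NC against NC_NC (SE 0.113, adjusted p = 0.00414) and -0.36 in KD_OE against NC_NC (SE 0.113, adjusted p = 0.0108). The second was not called without replicate 2 of KD_OE (adjusted p = 0.0907) or with upper-quartile scaling (0.0615). HIST2H2AC (ENSG00000184260, chr1:149886975-149887364, plus strand) faces HIST2H2BE. It had 1.17, 1.30 and 2.51 CPM in libraries labelled KD_OE, 2.56, 3.53 and 2.75 CPM in KD_NC and 1.62, 2.48 and 1.35 CPM in NC_NC. Its KD_NC libraries were the 3 highest. It was lower in KD_OE than in KD_NC (log2 fold change -0.83, SE 0.313, adjusted p = 0.0339). It was not so called without replicate 1 or 2 of KD_OE (adjusted p = 0.128 and 0.131) or replicate 2 or 3 of KD_NC (0.0981 and 0.0512). In sequence, 30.5% of its words of 50 bases also occur in other genes with HIST symbols. KD_NC against NC_NC gave 0.70 (SE 0.311, adjusted p = 0.0904). It was called higher there under the GC and length correction (0.93, adjusted p = 0.0221) and without replicate 2 of NC_NC (0.99, adjusted p = 0.0485).

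H2B pairs with H2A in the nucleosome, and 11 of its 18 genes were tested. Of these, 4 genes (HIST1H2BH, HIST2H2BE, HIST3H2BB and HIST1H2BG) were higher in KD_NC than in NC_NC and lower in KD_OE than in KD_NC. HIST1H2BH (ENSG00000275713, chr6:26251651-26253710, plus strand) has an annotated transcript that runs 1640 bases past the stem-loop. It had 13.4, 12.5 and 14.4 CPM in libraries labelled KD_OE, 25.1, 19.1 and 25.5 CPM in KD_NC and 16.0, 15.9 and 14.8 CPM in NC_NC. Every KD_NC library exceeded the 6 others, and all KD_OE libraries lay below all NC_NC libraries. It was 1.73-fold lower in KD_OE than in KD_NC (log2 fold change -0.79, SE 0.129, adjusted p = 5.33e-05). The gene was 1.49-fold higher in KD_NC than in NC_NC (log2 fold change 0.58, SE 0.128, adjusted p = 0.00175). KD_OE against NC_NC was not called (log2 fold change -0.21, SE 0.132, adjusted p = 0.189), but was called lower under the correction for GC content and length (-0.36, adjusted p = 0.0211). HIST2H2BE (ENSG00000184678, chr1:149884459-149886652, minus strand) is a gene known for polyadenylated transcripts as well. It had 9.07, 7.26 and 6.98 CPM in libraries labelled KD_OE, 10.5, 11.7 and 10.6 CPM in KD_NC and 6.97, 7.90 and 5.66 CPM in NC_NC. The KD_NC libraries were again the 3 highest, and the other groups overlapped. It was lower in KD_OE than in KD_NC (log2 fold change -0.50, SE 0.157, adjusted p = 0.0134). This call was lost without replicate 2 or 3 of KD_OE (adjusted p = 0.0580 and 0.0597). HIST2H2BE was higher in KD_NC than in NC_NC (log2 fold change 0.68, SE 0.159, adjusted p = 0.00277). HIST3H2BB (ENSG00000196890, chr1:228458107-228460470, plus strand) faces HIST3H2A. It had 3.95, 4.49 and 5.26 CPM in libraries labelled KD_OE, 6.76, 8.01 and 5.74 CPM in KD_NC and 4.33, 4.36 and 3.26 CPM in NC_NC. Its KD_NC libraries were the 3 highest and the others overlapped. It was lower in KD_OE than in KD_NC (log2 fold change -0.58, SE 0.192, adjusted p = 0.0166). It was higher in KD_NC than in NC_NC (log2 fold change 0.78, SE 0.196, adjusted p = 0.00437). The first call was lost without replicate 1 of KD_OE (adjusted p = 0.0616) or replicate 2 of KD_NC (0.0615). HIST1H2BG (ENSG00000273802, chr6:26215159-26216692, minus strand) faces HIST1H2AE and had 228 counts in all. It had 1.05, 1.18 and 0.857 CPM in libraries labelled KD_OE, 1.69, 2.59 and 2.28 CPM in KD_NC and 0.812, 1.65 and 1.05 CPM in NC_NC. All KD_NC libraries lay above the rest. It was 2.12-fold lower in KD_OE than in KD_NC (log2 fold change -1.09, SE 0.334, adjusted p = 0.0111). It was higher in KD_NC than in NC_NC (log2 fold change 0.89, SE 0.329, adjusted p = 0.0419). The second call was lost with DESeq2 (adjusted p = 0.0566), with no filter on low counts (0.0564), without replicate 2 or 3 of KD_NC (0.129 and 0.0775) and without replicate 1 or 3 of NC_NC (0.156 and 0.121).

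HIST1H2BK and HIST1H2BJ were lower in both groups labelled with the knockdown than in NC_NC. HIST1H2BK (ENSG00000197903, chr6:27146418-27146798, minus strand) is known to give polyadenylated transcripts as well. It had 5.49, 6.91 and 8.44 CPM in libraries labelled KD_OE, 9.26, 6.07 and 8.50 CPM in KD_NC and 18.7, 18.8 and 20.1 CPM in NC_NC. Its 3 NC_NC libraries lay far above the 6 others, which overlapped. It was 2.42-fold lower in KD_NC than in NC_NC (log2 fold change -1.28, SE 0.165, adjusted p = 1.02e-05). The gene was 2.76-fold lower in KD_OE than in NC_NC (log2 fold change -1.46, SE 0.169, adjusted p = 5.42e-07). In sequence, 22.6% of its words of 50 bases also occur in other genes with HIST symbols. KD_OE and KD_NC differed by -0.19, with an interval of -0.55 to 0.18. HIST1H2BJ (ENSG00000124635, chr6:27125897-27132750, minus strand) faces HIST1H2AG. It had 1.05, 0.709 and 0.857 CPM in libraries labelled KD_OE, 1.22, 0.846 and 0.879 CPM in KD_NC and 2.03, 2.95 and 3.08 CPM in NC_NC. Here too the NC_NC libraries were the 3 highest and the other groups overlapped. It was 2.74-fold lower in KD_NC than in NC_NC (log2 fold change -1.45, SE 0.315, adjusted p = 0.00148). The gene was 3.08-fold lower in KD_OE than in NC_NC (log2 fold change -1.62, SE 0.324, adjusted p = 0.000292). HIST1H2BD (ENSG00000158373, chr6:26158146-26171349, plus strand) is a gene known for polyadenylated transcripts as well. It had 2.72, 3.19 and 3.18 CPM in libraries labelled KD_OE, 4.66, 3.14 and 4.57 CPM in KD_NC and 4.67, 4.72 and 4.86 CPM in NC_NC. Both other groups lay below the NC_NC libraries and overlapped each other. It was called in KD_OE against NC_NC (log2 fold change -0.65, SE 0.208, adjusted p = 0.0126), though not without replicate 1 of KD_OE (adjusted p = 0.0543). KD_OE against KD_NC was called only under the GC and length correction (-0.50, adjusted p = 0.0409) and without replicate 2 of KD_NC (-0.64, adjusted p = 0.0172). The remaining 4 tested H2B genes, HIST1H2BC, HIST1H2BN, HIST2H2BF and HIST1H2BE, had 143 to 179 counts in all and were called in no comparison of the fit to all libraries. Their log2 differences ran over -1.13 to 0.52 for HIST1H2BC and -1.82 to -0.11 for HIST1H2BN as 95% intervals of KD_NC against NC_NC. The second interval leaves out 0, but the adjusted p was 0.0741. HIST1H2BN was called lower in this comparison under the GC and length correction (-1.14, adjusted p = 0.0372) and without replicate 1 of KD_NC (-1.56, adjusted p = 0.0103). HIST1H2BE had 0.679, 0.472 and 0.795 CPM in libraries labelled KD_OE, 0.990, 1.29 and 0.937 CPM in KD_NC and 1.29, 0.884 and 1.11 CPM in NC_NC. Its KD_OE libraries lay below the 6 others, without a call (adjusted p = 0.128 against KD_NC and 0.117 against NC_NC). HIST1H2BE, HIST1H2BN and HIST2H2BF share 28.2%, 7.2% and 5.5% of their exon bases with other genes. Of their words of 50 bases, 3.6%, 2.2% and 20.3% also occur in other genes with HIST symbols. Their counts are uncertain on both grounds.

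H3 carries many of the chromatin marks on its tail, and 6 of its 15 genes were tested, all from the HIST1 cluster and each with 83 to 252 counts. HIST1H3G (ENSG00000273983, chr6:26269405-26271815, minus strand) had 214 counts in all. It had 0.247, 0.945 and 0.612 CPM in libraries labelled KD_OE, 0.583, 1.24 and 1.05 CPM in KD_NC and 2.23, 3.48 and 2.40 CPM in NC_NC. Every NC_NC library lay above the 6 others. It was 2.79-fold lower in KD_NC than in NC_NC (log2 fold change -1.48, SE 0.379, adjusted p = 0.00523). The gene was 4.44-fold lower in KD_OE than in NC_NC (log2 fold change -2.15, SE 0.411, adjusted p = 0.000184), the lowest fold of the 25 tested histone genes in that comparison. HIST1H3F (ENSG00000277775, chr6:26250195-26250605, minus strand) had 83 counts in all. It had 0.309, 0.236 and 0.184 CPM in libraries labelled KD_OE, 0.874, 0.0498 and 0.703 CPM in KD_NC and 0.812, 0.943 and 0.923 CPM in NC_NC. KD_OE lay below NC_NC in all libraries, and replicate 2 of KD_NC had 1 count. It was lower in KD_OE than in NC_NC (log2 fold change -1.85, SE 0.651, adjusted p = 0.0210). This call was lost without replicate 2 or 3 of KD_OE (adjusted p = 0.0591 and 0.0679) or replicate 2 of NC_NC (0.0533). Without replicate 2 of KD_NC it was also called lower in KD_OE than in KD_NC (-1.71, adjusted p = 0.0158). HIST1H3H, HIST1H3E, HIST1H3C and HIST1H3J were called in no comparison with all libraries and the filter. HIST1H3H had 1.36, 0.709 and 1.22 CPM in libraries labelled KD_OE, 1.92, 1.59 and 2.11 CPM in KD_NC and 1.35, 3.24 and 1.35 CPM in NC_NC. KD_OE lay below KD_NC in all libraries, with a log2 difference of -0.77 (SE 0.377, adjusted p = 0.0987). KD_OE was called lower than NC_NC with no filter on low counts (-0.88, adjusted p = 0.0469) and without replicate 1 or 3 of NC_NC (-1.08 and -1.09, adjusted p = 0.0313 and 0.0288). HIST1H3E had 1.11, 1.12 and 1.41 CPM in libraries labelled KD_OE, 1.22, 1.19 and 1.17 CPM in KD_NC and 1.76, 2.06 and 1.72 CPM in NC_NC. Both other groups lay below NC_NC, with differences of -0.61 for KD_OE (adjusted p = 0.0962) and -0.63 for KD_NC (adjusted p = 0.114). HIST1H3C differed by -0.79 between KD_OE and KD_NC, with an interval of -1.61 to 0.04, and was called without replicate 2 of KD_OE (-1.18, adjusted p = 0.0433). HIST1H3J shares 44.6% of its exon bases with HIST1H2AM and had -1.29 in the same comparison (interval -2.51 to -0.07, adjusted p = 0.0737). It was called without replicate 1 of KD_NC (-1.60, adjusted p = 0.0370).

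H4, whose genes encode nearly the same protein from many loci, had 3 tested genes of 15. HIST1H4I (ENSG00000276180, chr6:27138588-27139881, plus strand) was the most counted H4 gene. It had 2.90, 3.54 and 3.43 CPM in libraries labelled KD_OE, 2.39, 4.78 and 3.63 CPM in KD_NC and 7.85, 5.54 and 8.49 CPM in NC_NC. Its 3 NC_NC libraries were the highest and the 2 other groups overlapped. It was 2.01-fold lower in KD_NC than in NC_NC (log2 fold change -1.01, SE 0.231, adjusted p = 0.00231). The gene was 2.21-fold lower in KD_OE than in NC_NC (log2 fold change -1.14, SE 0.235, adjusted p = 0.000391). HIST4H4 (ENSG00000197837, chr12:14767999-14771131, minus strand), alone on its chromosome, averaged 2.19 ± 0.250 CPM in libraries labelled KD_OE, 2.42 ± 0.557 CPM in KD_NC and 2.71 ± 0.713 CPM in NC_NC (SD, n = 3 each); its intervals were -0.72 to 0.42 for KD_OE against KD_NC, -0.72 to 0.39 for KD_NC against NC_NC and -0.88 to 0.25 for KD_OE against NC_NC. HIST1H4H averaged 1.88 ± 0.542 CPM in libraries labelled KD_OE, 1.61 ± 0.638 CPM in KD_NC and 1.52 ± 0.0633 CPM in NC_NC, and the adjusted p-values were 0.610 for KD_OE against KD_NC, 0.871 for KD_NC against NC_NC and 0.462 for KD_OE against NC_NC.

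**Figure D3:**
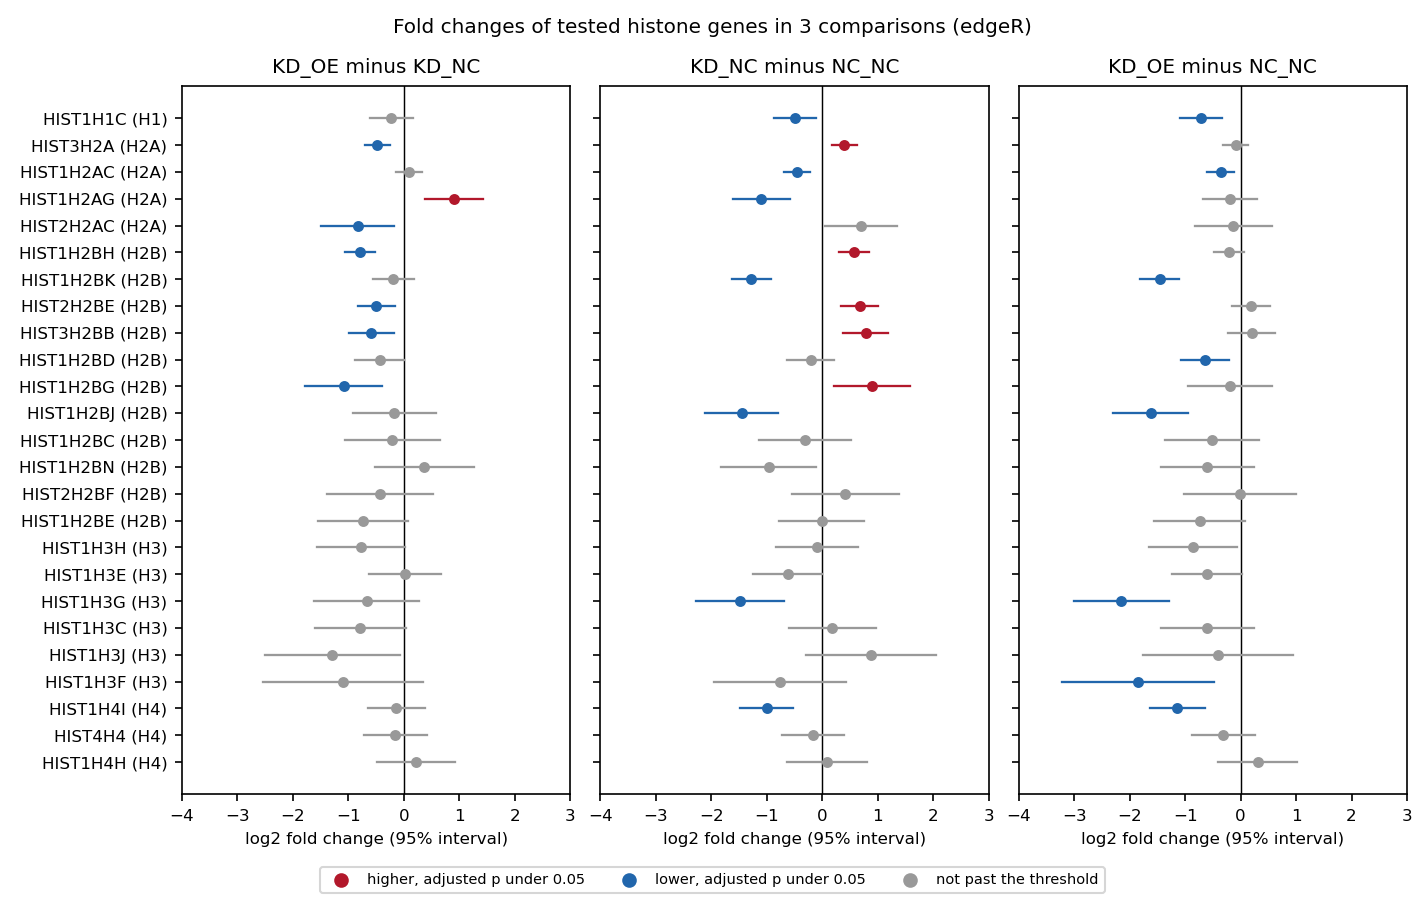
Log2 fold changes (horizontal axis; points, with 95% intervals) of the 25 tested histone genes in KD_OE minus KD_NC, KD_NC minus NC_NC and KD_OE minus NC_NC; red is higher, blue lower and grey not past an adjusted p of 0.05. The 8 called genes of KD_OE minus NC_NC all lie below 0, while those of KD_NC minus NC_NC lie on both sides.

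By cluster, the 55 HIST1 genes of chromosome 6 summed to 74.4 ± 4.48 CPM in KD_OE, 92.5 ± 7.96 CPM in KD_NC and 117 ± 4.57 CPM in NC_NC. The 12 HIST2 genes of chromosome 1 summed to 11.1 ± 0.935 CPM in KD_OE, 15.8 ± 1.98 CPM in KD_NC and 10.3 ± 1.57 CPM in NC_NC, and the 3 HIST3 genes to 48.2 ± 3.31 CPM, 67.6 ± 7.11 CPM and 50.2 ± 2.91 CPM. KD_NC was thus the highest group of the HIST2 and HIST3 sums and lay between the others in the HIST1 sum. HIST3H2A held 7652 of the 8462 HIST3 counts and HIST2H2BE 1310 of the 1913 HIST2 counts, so these sums largely follow 1 gene each. Genes were also grouped into blocks of neighbours less than 500000 bases apart, a view taken after their values were seen and given without a test. In the block of chromosome 6 at 27125897 to 27147515, which spans 21.6 kb and holds 5 histone genes, all 4 tested genes (HIST1H2AG, HIST1H2BJ, HIST1H2BK and HIST1H4I) were lower in KD_NC than in NC_NC. In KD_OE against NC_NC 3 of them were lower, and in KD_OE against KD_NC HIST1H2AG was higher and the others were not called. In the block of chromosome 1 at 228424845 to 228460470 both tested genes, HIST3H2A and HIST3H2BB, were lower in KD_OE than in KD_NC and higher in KD_NC than in NC_NC. In that at 149782689 to 149887916 on chromosome 1, HIST2H2BE and HIST2H2AC were lower in KD_OE than in KD_NC, and HIST2H2BE was higher in KD_NC than in NC_NC. The largest block of chromosome 6, at 25726132 to 26285638, held 34 histone genes, 12 of them tested, of which 2 were higher and 3 lower in KD_NC than in NC_NC. Of all genes tested, 16.0% were called higher and 18.5% lower in that comparison, and the largest block came near these shares. The shares of all genes were 23.7% higher and 25.6% lower in KD_OE against KD_NC, and 27.9% and 28.4% in KD_OE against NC_NC.

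**Figure D4:**
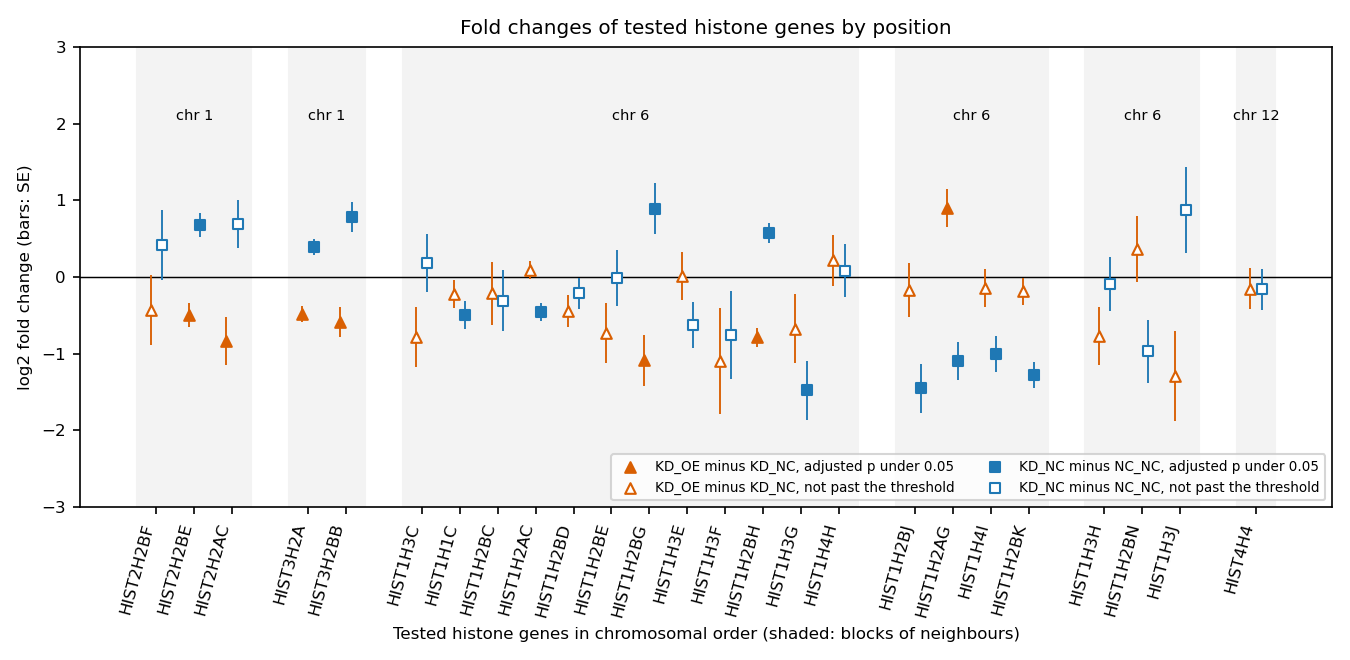
Log2 fold changes (vertical axis; bars are SE) of the 25 tested histone genes in chromosomal order, in KD_OE minus KD_NC (triangles) and KD_NC minus NC_NC (squares); filled symbols passed an adjusted p of 0.05 and shading marks blocks of neighbours. The tested genes of the second chromosome 6 block are all lower in KD_NC than in NC_NC, and the 2 of the second chromosome 1 block are both higher.

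Many H2A and H2B genes lie head to head and share the DNA between their starts, as with HIST3H2A and HIST3H2BB, whose annotated starts are 233 bases apart. Distances here are between starts of the GENCODE gene models. For HIST2H2AC, whose model holds coding sequence only, and for HIST1H2BJ, the RefSeq promoter window ends upstream of the model start. The RNA starts of these pairs can thus lie nearer to each other. In that pair both genes were lower in KD_OE than in KD_NC, with log2 fold changes of -0.48 and -0.58, and both were higher in KD_NC than in NC_NC, with 0.39 and 0.78. HIST2H2BE and HIST2H2AC, 322 bases apart, had -0.50 and -0.83 in KD_OE against KD_NC, and 0.68 and 0.70 in KD_NC against NC_NC, of which the last was not called. HIST1H2BJ and HIST1H2AG, 291 bases apart, had -1.45 and -1.10 in KD_NC against NC_NC, both called, but -0.17 (not called) and 0.90 (called) in KD_OE against KD_NC. HIST1H2BC and HIST1H2AC, 218 bases apart, had -0.31 (not called) and -0.46 (called) in KD_NC against NC_NC. The partners HIST1H2AE of HIST1H2BG and HIST1H2AH of HIST1H2BK were below the filter, with 29 and 50 counts in all.

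The 35 genes whose models show no bases after an annotated stop codon (6 tested) summed to 20.9 ± 3.78 CPM in KD_OE, 28.1 ± 3.60 CPM in KD_NC and 41.4 ± 2.36 CPM in NC_NC. The 36 whose models run past the stop codon (19 tested) summed to 115 ± 7.58 CPM in KD_OE, 150.3 ± 8.57 CPM in KD_NC and 138 ± 6.42 CPM in NC_NC. Single genes weigh on both sums. HIST1H2BK and HIST1H1C held 1691 and 1570 of the 4544 counts of the first set. HIST3H2A held 7652 of the 20489 counts of the second, with means of 60.7 CPM in KD_NC and 46.1 CPM in NC_NC. The order of KD_NC and NC_NC in the second sum rests on HIST3H2A. The annotated transcripts of HIST3H2A, HIST1H2BH and HIST2H2BE run on for 390, 1640 and 1729 bases past the stem-loop, so counts of these genes can hold reads of transcripts that pass it. Known as sources of polyadenylated histone messengers are the 5 genes HIST1H1C, HIST1H2AC, HIST2H2BE, HIST1H2BK and HIST1H2BD: 1 of them was lower in KD_OE than in KD_NC, 1 was higher and 3 lower in KD_NC than in NC_NC, and 4 were lower in KD_OE than in NC_NC. Of all genes tested, 49.2%, 34.6% and 56.3% were called in these 3 comparisons in either direction.

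The background for the counts of related genes that follow is the same: 49.2%, 34.6% and 56.3% of all tested genes were called in KD_OE against KD_NC, KD_NC against NC_NC and KD_OE against NC_NC, with 25.6%, 18.5% and 28.4% called lower. Of 16 genes that process or destroy histone messengers, 6 were lower and none higher in KD_OE than in KD_NC, 5 were lower and 1 higher in KD_NC than in NC_NC, and 8 were lower and 3 higher in KD_OE than in NC_NC, with medians of -0.23, -0.05 and -0.35. In both directions together the share called was below the background in the first comparison, near it in the second and above it in the third. SLBP, the stem-loop binding protein, had 57.6, 57.1 and 58.9 CPM in libraries labelled KD_OE, 116, 125 and 152 CPM in KD_NC and 126, 125 and 128 CPM in NC_NC. Its KD_OE libraries lay far below all others: it was 2.26-fold lower in KD_OE than in KD_NC (log2 fold change -1.18, SE 0.0988, adjusted p = 1.73e-08), while KD_NC against NC_NC gave 0.05 (adjusted p = 0.725). CSTF2, a cleavage factor, was also lower in KD_OE than in KD_NC (log2 fold change -0.72, SE 0.118, adjusted p = 5.39e-05). ERI1, the exonuclease that trims and destroys stem-loop ends, averaged 35.1 ± 4.46 CPM in libraries labelled KD_OE, 52.1 ± 3.40 CPM in KD_NC and 40.0 ± 0.111 CPM in NC_NC and was higher in KD_NC than in NC_NC (log2 fold change 0.38, SE 0.104, adjusted p = 0.00811). It was not so called under the correction for GC content and length (adjusted p = 0.0649). UPF1 was lower in KD_NC than in NC_NC (log2 fold change -0.51, SE 0.0877, adjusted p = 0.000198), as was the elongation kinase CDK9 (log2 fold change -0.40, SE 0.0853, adjusted p = 0.00139). NPAT, the co-activator of histone transcription that cyclin E with CDK2 switches on, and its partner CASP8AP2 were higher in KD_OE than in NC_NC, by 0.58 and 0.72 on the log2 scale (adjusted p = 0.000961 and 0.000368), calls lost under the GC and length correction (0.258 and 0.0870).

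Of 21 histone chaperone and transport genes, 15 were lower and 2 higher in KD_OE than in KD_NC, 8 were lower and 1 higher in KD_NC than in NC_NC, and 14 were lower and 2 higher in KD_OE than in NC_NC, with medians of -0.48, -0.14 and -0.51. CHAF1A, a subunit of the CAF-1 complex that places new H3 and H4 behind the replication fork, averaged 20.7 ± 1.31 CPM in libraries labelled KD_OE, 61.9 ± 7.44 CPM in KD_NC and 81.4 ± 2.25 CPM in NC_NC and was 2.99-fold lower in KD_OE than in KD_NC (log2 fold change -1.58, SE 0.105, adjusted p = 7.99e-10). MCM2, a helicase subunit that also carries H3 and H4, was 2.62-fold lower (log2 fold change -1.39, SE 0.0880, adjusted p = 3.78e-10). ASF1B, another carrier of H3 and H4, was lower in KD_NC than in NC_NC (log2 fold change -0.62, SE 0.116, adjusted p = 0.000388), as was HJURP, the chaperone of the centromere histone (log2 fold change -0.59, SE 0.0924, adjusted p = 7.53e-05). ATRX, a remodeler that works with DAXX on H3.3, was the exception in size: it had 131, 124 and 117 CPM in libraries labelled KD_OE, 25.6, 31.0 and 20.7 CPM in KD_NC and 27.5, 16.4 and 20.7 CPM in NC_NC. It was 4.81-fold higher in KD_OE than in KD_NC (log2 fold change 2.26, SE 0.156, adjusted p = 3.63e-09). ASF1A was higher in KD_OE than in KD_NC (log2 fold change 0.38, SE 0.118, adjusted p = 0.0114), but not so called without replicate 1 of KD_OE (adjusted p = 0.0890) or of KD_NC (0.0616). KD_NC against NC_NC was not called for ASF1A (-0.14, adjusted p = 0.377), but was called lower under the GC and length correction (-0.48, adjusted p = 0.000209). HAT1, the acetyltransferase of new H4, was higher in KD_NC than in NC_NC (log2 fold change 0.36, SE 0.107, adjusted p = 0.0128). This call was lost without replicate 3 of KD_NC (adjusted p = 0.0534) or replicate 2 of NC_NC (0.0845). NAP1L1 was higher in KD_OE than in NC_NC (log2 fold change 0.41, SE 0.107, adjusted p = 0.00288), a direction that turned under the GC and length correction, where it was -0.26.

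Many replacement variants are histones made outside S phase as well, from polyadenylated messengers, and 11 of 12 listed genes were tested. This description need not hold for each listed gene, H2AFX included. In KD_OE against KD_NC 7 were lower and 1 higher, in KD_NC against NC_NC 9 were lower and none higher, and in KD_OE against NC_NC 10 were lower and 1 higher, with medians of -0.47, -0.53 and -0.79. H2AFX, the variant that is phosphorylated at DNA breaks, had 91.5, 98.1 and 108 CPM in libraries labelled KD_OE, 252, 214 and 279.9 CPM in KD_NC and 425, 452 and 411 CPM in NC_NC. Its groups did not overlap, with 2.50-fold lower levels in KD_OE than in KD_NC (log2 fold change -1.32, SE 0.102, adjusted p = 5.18e-09) and 1.73-fold lower ones in KD_NC than in NC_NC (log2 fold change -0.79, SE 0.0992, adjusted p = 7.49e-06). H2AFZ, the variant at promoters, and CENPA, the centromere H3, were 2.60-fold and 2.56-fold lower in KD_OE than in NC_NC (adjusted p = 2.77e-09 and 1.91e-08). H1F0, the linker variant of resting cells, was higher in KD_OE than in KD_NC (log2 fold change 0.67, SE 0.0984, adjusted p = 1.58e-05).

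Of 50 S phase and cyclin E genes, all were lower in KD_OE than in KD_NC, with a median of -1.29 and a range of -2.22 to -0.34. Against NC_NC, 49 of 50 were lower in KD_OE, with a median of -1.45, whereas KD_NC against NC_NC had 19 lower and 3 higher, with a median of -0.17. MCM10 and ORC1, which act at replication origins, were 3.90-fold and 3.80-fold lower in KD_OE than in KD_NC (adjusted p = 3.17e-11 and 1.93e-11). FEN1, the flap endonuclease of the lagging strand, was 5.37-fold lower in KD_OE than in NC_NC (adjusted p = 2.54e-12). RPA1, a subunit of the single-strand binding complex, and cyclin A2 (CCNA2) were lower in KD_NC than in NC_NC, with log2 fold changes of -1.16 and -0.72 (adjusted p = 5.30e-09 and 7.99e-06). DTL was higher in KD_NC than in NC_NC (log2 fold change 0.34, SE 0.0990, adjusted p = 0.0112). This call was lost without replicate 2 of NC_NC (adjusted p = 0.0675). MCM6, a helicase subunit, was higher in KD_NC than in NC_NC (log2 fold change 0.23, SE 0.0808, adjusted p = 0.0306), a call lost without any 1 replicate of NC_NC (adjusted p = 0.0851, 0.0729 and 0.125), without replicate 2 of KD_OE (0.0555), with no filter on low counts (0.0576) and under the GC and length correction (0.105). Beside these, the tested histone genes had medians of -0.44 in KD_OE against KD_NC, -0.16 in KD_NC against NC_NC and -0.52 in KD_OE against NC_NC, and 18, 13 and 17 of the 25 were not called.

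**Figure D5:**
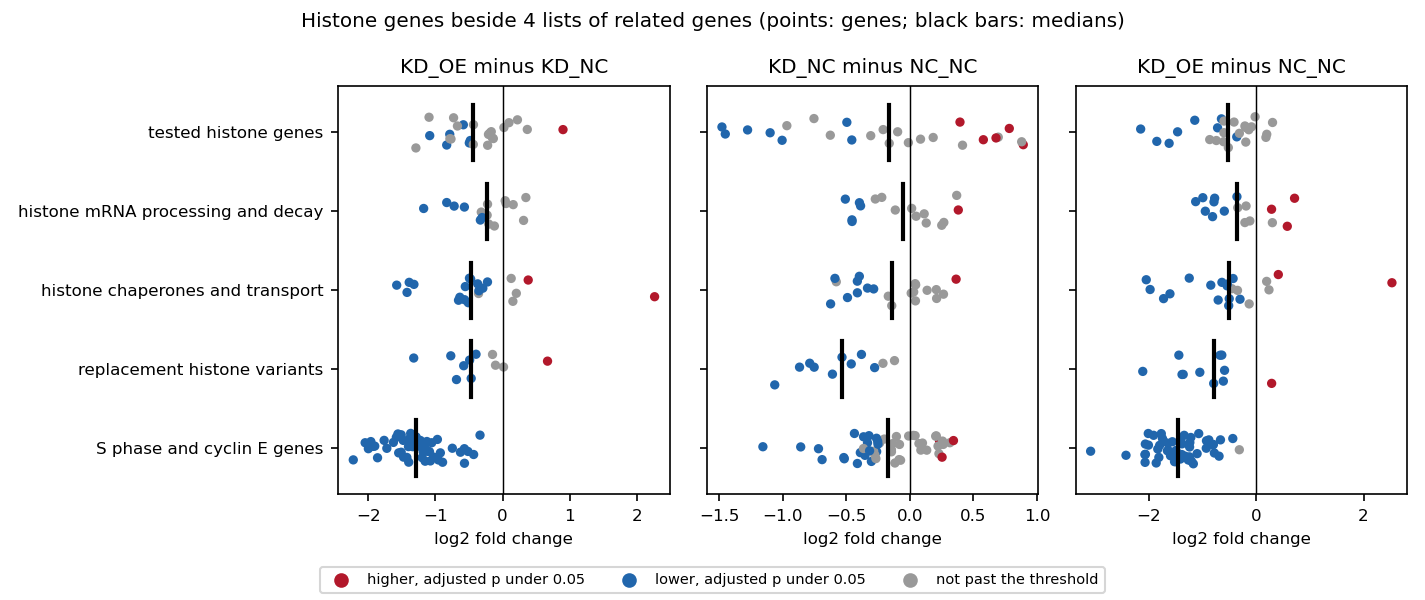
Log2 fold changes (horizontal axis) of the 25 tested histone genes and of 4 lists of related genes in the 3 comparisons; points are genes, black bars medians, and colours show the call. The S phase genes lie wholly below 0 in KD_OE minus KD_NC, around a median of -1.29, and the histone genes lie nearer to 0 around -0.44.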

How the data were processed

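Total RNA of FaDu cells was extracted with TRIzol and made into libraries with a NEBNext Ultra RNA kit, per the labels' protocols; this kit does not mark strand, so antisense overlaps cannot be resolved. The authors deposited raw read counts per gene for 9 libraries, 3 in each group. HISAT2 2.0.5, StringTie 1.3.3b, featureCounts 1.5.0-p3 and hg19 are named in the submitters' processing notes without roles, while all 58735 gene identifiers and coordinates of the table equal GENCODE v29 on GRCh38, which is used here. Poly(A) selection or ribosomal depletion, the strand setting and the handling of reads that map to several genes are not stated in the labels or notes; stem-loop messengers without a poly(A) tail are recovered differently by the first 2, and near-identical histone genes by the last.

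Counts were tested with edgeR 4.0.16 in R 4.3.3 (filterByExpr with a minimum count of 10, TMM factors, robust quasi-likelihood fit of all 9 libraries with 1 term per group and 6 residual degrees of freedom), with Benjamini-Hochberg adjustment over 16812 genes and calls at an adjusted p under 0.05. Alternatives were DESeq2 1.42.0, other scaling factors and filters, a replicate block, corrections for GC content and length, fits of only the 2 groups compared and leaving out each library. Intervals of 95% and floors of 3 counts cover counting error or the spread between libraries only. The histone genes and the related lists were chosen with earlier results of these data known. Named were AMIGO2, CAPN2, every histone gene that passed the filter, the most counted low gene of each class and cluster, those at 0, and up to 2 higher and 2 lower genes of each list per comparison by lowest adjusted p; for the marker lists summed levels are given instead, and the genes of these marker lists are not described one by one.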

Additional observations from a re-analysis of the deposited data

How the results depend on the processing

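The number of all genes called ran from 7071 to 9072 for KD_OE against KD_NC, 4288 to 6427 for KD_NC against NC_NC and 8317 to 10348 for KD_OE against NC_NC over 18 alternatives, and that of histone genes from 5 to 9, 10 to 13 and 6 to 10. The log2 ratio of the summed histone level ran from -0.47 to -0.33, -0.065 to 0.057 and -0.45 to -0.30 over 15 alternatives; it was not computed for the replicate block or the GC and length corrections, which give no summed level. No pairing by replicate number was seen, as deviations of same-numbered libraries from their group means correlated at -0.111 to 0.063. Deviations within a group are tied to each other by their shared mean, so weak pairing could go unseen. With the replicate block 7912, 5376 and 9149 genes and 7, 12 and 8 histone genes were called. The block ended the call of MCM6 in KD_NC against NC_NC (edgeR adjusted p = 0.0597), and with the GC and length correction that of HIST3H2BB in KD_OE against KD_NC (0.0528). Upper-quartile factors moved the median of all genes by 0.103 in KD_OE against NC_NC. Fold changes followed GC content across genes, with Spearman's rho of -0.083, -0.363 and -0.287 in the 3 comparisons, over 16802 genes that are not independent. Genes with 83 to 252 counts had standard errors up to 0.690 on the log2 scale. That value is of HIST1H3F in KD_OE against KD_NC, where -1.10 was not called (edgeR adjusted p = 0.199). Differences larger than 1 standard error could thus also go uncalled in the least counted genes at this depth. The cause of the following turns was not tested. In KD_OE against KD_NC, the log2 fold change took the other sign when 1 library was left out for these genes, with ranges over the 9 omissions of CDK9 -0.026 to 0.048, HIST1H2AC -0.0059 to 0.20, HIST1H2BC -0.49 to 0.29, HIST1H2BJ -0.35 to 0.0032, HIST1H3E -0.10 to 0.070, HIST1H4H -0.077 to 0.43 and HIST1H4I -0.37 to 0.092. Under the GC and length correction, the turned values in this comparison were NAP1L1 -0.26. With that correction and the replicate block, the turned values in this comparison were NAP1L1 -0.24. With no filter on low counts, the turned values in this comparison were HIST1H3E -0.017. In KD_NC against NC_NC, the log2 fold change took the other sign when 1 library was left out for these genes, with ranges over the 9 omissions of AMIGO2 -0.062 to 0.090, HIST1H2BE -0.15 to 0.11, HIST1H3C -0.039 to 0.54, HIST1H3H -0.31 to 0.46, HIST1H4H -0.12 to 0.37, HIST2H2BF -0.027 to 0.75, HIST4H4 -0.34 to 0.029 and SLBP -0.071 to 0.13. Under the GC and length correction, the turned values in this comparison were AMIGO2 -0.075, HIST1H4H -0.053, NAP1L1 -0.0060. With that correction and the replicate block, the turned values in this comparison were AMIGO2 -0.073, HIST1H4H -0.062, NAP1L1 -0.028. With at least 1 CPM in 3 libraries, the turned values in this comparison were HIST1H2BE 0.017. With no filter on low counts, the turned values in this comparison were HIST1H2BE 0.012. With only the 2 groups compared, the turned values in this comparison were HIST1H2BE 0.016. With upper-quartile factors, the turned values in this comparison were HIST1H2BE 0.032. In KD_OE against NC_NC, the log2 fold change took the other sign when 1 library was left out for these genes, with ranges over the 9 omissions of HIST1H2BG -0.40 to 0.13, HIST1H3J -0.90 to 0.40, HIST2H2AC -0.56 to 0.15 and HIST2H2BF -0.34 to 0.21. Under the GC and length correction, the turned values in this comparison were ASF1A -0.22, CAPN2 -0.030, HIST2H2AC 0.023, HIST2H2BF 0.079, HIST3H2A 0.10, NAP1L1 -0.26. With that correction and the replicate block, the turned values in this comparison were ASF1A -0.22, CAPN2 -0.030, HIST2H2AC 0.035, HIST2H2BF 0.021, HIST3H2A 0.11, NAP1L1 -0.27. ASF1A was called lower in both of these fits (edgeR adjusted p = 0.0369 and 0.0427). NAP1L1 was called lower in the second (0.0442), though it was called higher without the correction. ASF1A was instead called higher with upper-quartile factors (0.34, adjusted p = 0.0160) and in a fit of these 2 groups alone (0.25, adjusted p = 0.0176). With at least 1 CPM in 3 libraries, the turned values in this comparison were HIST2H2BF 0.0055. With upper-quartile factors, the turned values in this comparison were HIST2H2BF 0.083, HIST3H2A 0.017.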

Other observations

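The count table also holds 19 pseudogenes with HIST symbols, of which 2 passed the filter, 7 were at 0 in every library and 10 had a few counts. HIST2H2BC had 10.6, 8.56 and 8.44 CPM in libraries labelled KD_OE, 6.87, 7.81 and 7.38 CPM in KD_NC and 12.4, 9.49 and 11.6 CPM in NC_NC. Its KD_NC libraries were the lowest, below all NC_NC libraries. KD_OE against KD_NC gave 0.32 on the log2 scale (SE 0.154, edgeR adjusted p = 0.0909), and KD_NC against NC_NC -0.59 (SE 0.152, adjusted p = 0.00510). HIST2H2BD averaged 2.12 ± 0.206 CPM in libraries labelled KD_OE, 1.60 ± 0.0759 CPM in KD_NC and 2.65 ± 0.523 CPM in NC_NC (SD, n = 3 each), with 0.40 for KD_OE against KD_NC (edgeR adjusted p = 0.219) and -0.73 for KD_NC against NC_NC (adjusted p = 0.0360). Reads of pseudogenes and of the histone genes they resemble may not be separable.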
